A study of Mus musculus with 5 samples.

Results

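The phagocyte NADPH oxidase was followed here through 4 of its genes, Cybb, Cyba, Ncf1 and Ncf4, in common dendritic cell progenitors (CDP) and common myeloid progenitors (CMP). All probe sets annotated to exactly 1 gene symbol, that symbol being one of the 4, were taken. This gave 8 of the 45037 probe sets on the array, 3 for Cybb, 1 for Cyba, 3 for Ncf1 and 1 for Ncf4. The study hybridized 3 CDP and 2 CMP samples to Affymetrix mouse arrays. Both populations were sorted, and sorted again, from the marrow of wild-type C57BL/6 mice, whose age and treatment the labels do not state. CDP were lineage-negative with intermediate c-Kit, and positive for CD34, Flk2 and CD115. CMP were lineage-negative with high c-Kit, positive for CD34 and Flk2, and negative for CD115 and CD11c. Both lacked Sca-1 and CD16/32, and neither carried an engineered allele. No label tells whether the arrays hold RNA of separate animals. The p-values thus describe only the spread between these samples, and that spread may be technical. By its title, the series belongs to work on how IRF-8 bears on neutrophil output and on dendritic cell commitment.

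The oxidase moves electrons from NADPH across a membrane onto oxygen and so makes superoxide, the starting point of the respiratory burst of neutrophils and macrophages. Its membrane core, cytochrome b558, pairs the catalytic chain gp91phox (NOX2), the product of Cybb, with p22phox, the product of Cyba, which stabilizes it. In resting cells cytosolic subunits such as p47phox (Ncf1) and p40phox (Ncf4) are held apart from that core, and on activation they move to it together with the GTPase Rac. Loss of a subunit causes chronic granulomatous disease in humans. In dendritic cells the same enzyme slows the acidification of phagosomes and the destruction of antigen.

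The promoter windows of 3 of the 4 genes are shown because the data hold both the subunit genes and factors known to bind such promoters. In human cells PU.1 and IRF8 bind the CYBB promoter. The sequences are from RefSeq (GRCm38.p6), all on the minus strand, and run 5′ to 3′ over 250 bases before and 50 bases after the annotated transcript start. They cover chrX:9469275-9469574 for Cybb, chr5:134229576-134229875 for Ncf1 and chr8:122432891-122433190 for Cyba. Capitals mark matches, on either strand, to the PU.1 core GAGGAA, the ETS and IRF composite (GGAA and GAAA with any 2 bases between them), the interferon response element (GAAA and GAAA with any 2 bases between them) and the CCAAT box.
Cybb: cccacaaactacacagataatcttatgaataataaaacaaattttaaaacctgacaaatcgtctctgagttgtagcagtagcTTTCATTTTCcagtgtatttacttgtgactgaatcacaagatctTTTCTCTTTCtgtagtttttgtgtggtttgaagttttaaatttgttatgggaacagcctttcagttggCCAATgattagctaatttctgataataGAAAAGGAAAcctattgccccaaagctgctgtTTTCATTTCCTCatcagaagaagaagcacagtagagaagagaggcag
Ncf1: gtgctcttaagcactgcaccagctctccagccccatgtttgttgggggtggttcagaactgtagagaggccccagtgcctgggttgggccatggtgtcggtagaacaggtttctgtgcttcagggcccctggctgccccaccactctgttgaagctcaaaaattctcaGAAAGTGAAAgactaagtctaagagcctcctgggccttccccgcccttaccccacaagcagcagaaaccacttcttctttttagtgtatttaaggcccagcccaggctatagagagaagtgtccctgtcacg
Cyba: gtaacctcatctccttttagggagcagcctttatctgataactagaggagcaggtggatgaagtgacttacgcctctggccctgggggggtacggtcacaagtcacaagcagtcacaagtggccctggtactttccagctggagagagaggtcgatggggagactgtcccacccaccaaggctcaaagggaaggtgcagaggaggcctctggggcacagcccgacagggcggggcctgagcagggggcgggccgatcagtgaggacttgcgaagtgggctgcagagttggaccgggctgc

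The Cybb window held matches to every one of these motifs. Its PU.1 core lay at positions 10 to 15 after the transcript start, on the reverse strand. It overlapped the composite match at positions 4 to 13, TTTCATTTCC as printed. Interferon response element matches lay at -168 to -159, -124 to -115 and -29 to -20, and the CCAAT box lay at -56 to -52. The Ncf1 window held 1 interferon response element match, GAAAGTGAAA at -82 to -73, and the Cyba window held no match to any of these letters. Of 32851 promoter windows in the same table, 28.3% held the PU.1 core, 2.72% the composite, 3.44% the interferon response element and 37.4% the CCAAT box. The matches describe letters in these windows and not bound sites.

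**Figure D1:**
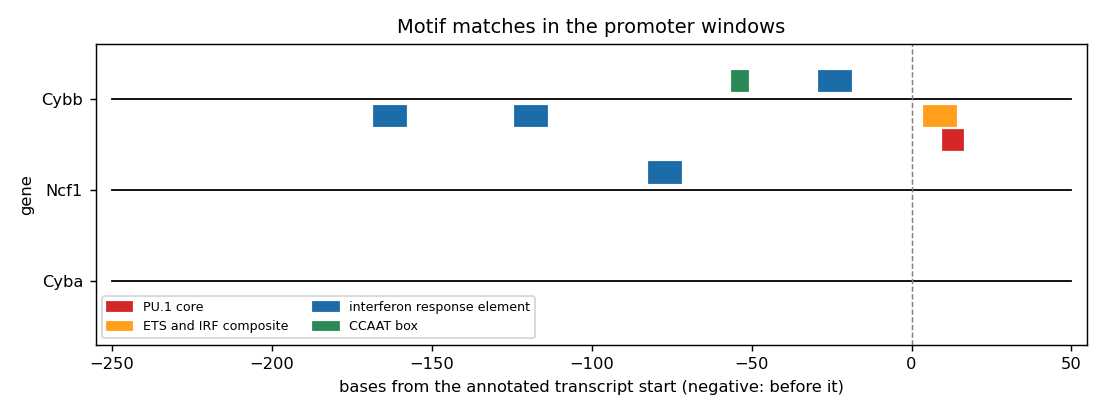
Positions of motif matches in the promoter windows of Cybb, Ncf1 and Cyba, in bases from the annotated transcript start (dashed line). Boxes above a gene's line are on the printed strand and boxes below it on the other strand. Cybb carries matches to all 4 motifs, Ncf1 to 1 and Cyba to none.

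Across the subunits, Cybb showed the widest gap between the populations and Ncf4 a smaller one, while Cyba overlapped between them. On the brightest Ncf1 probe set every CDP array was above every CMP array, by a small margin. None of the 4 genes passed the threshold of an adjusted p under 0.05 when all 5 arrays were fitted together (limma on the deposited log2 values, Benjamini-Hochberg over 16552 tested probe sets), where 1.73% of probe sets passed. Probe sets were tested when at least 2 arrays reached log2 5, which also serves as the detection level, and 6 of the 8 were. At an unadjusted p under 0.05 there were 2 of these 6, those of Cybb and Ncf4, against 15.9% of all tested probe sets. Every CDP array lay above every CMP array on 3 of the 6, against 21.2% of tested probe sets. Both counts include Cybb, whose probe set passed the filter through the CDP arrays alone and whose CMP values lay below detection. Its place in them adds no support. Each difference is CDP minus CMP on the log2 scale, and the median over all tested probe sets was 0.12. In sorted bulk samples, fewer cells that express a gene and less RNA per cell cannot be told apart.

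**Figure D2:**
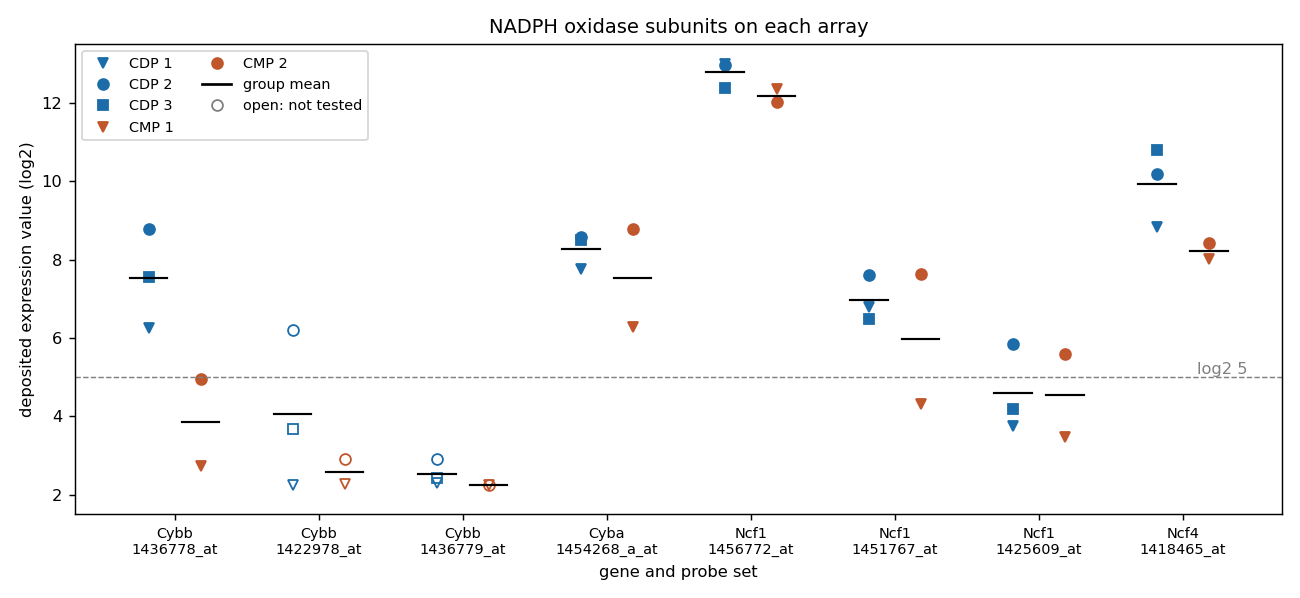
Deposited log2 value (vertical axis) of each of the 8 oxidase probe sets on each array, CDP in blue and CMP in orange, with bars at the group means. The dashed line is the detection level of log2 5, and open symbols are the 2 Cybb probe sets that were not tested. On Cybb 1436778_at all 3 CDP arrays are above the line and both CMP arrays are below it.

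Before the results, 3 facts of the arrays bear on them. The 5′ beta-actin control read 6.54 on CDP 1 and 6.71 on CMP 1, against 10.52 to 12.97 on CDP 2, CDP 3 and CMP 2. CDP 1 and CMP 1 are named the 5′-poor arrays below, and the differences of the subunits, of Rac2 and of Cybc1 are also given within these 2 arrays and within the other 3. CDP 2 alone carried transcripts of neutrophils, cells that hold the oxidase, with 8 of 9 listed markers at or above log2 5 and none on any other array. The remaining marker, Cxcr2, read 2.94 on CDP 2 and was below detection on every array, so the stage of these cells is not given. The summed signal of the 9 markers was 14.00 (log2) on CDP 2, against 5.84 on CDP 1, 5.78 on CDP 3 and 6.24 and 6.15 on the CMP arrays. Of 7 sorting genes with a named probe set, each on its brightest tested one, Kit (lower in CDP) and Itgax, which encodes CD11c (higher), passed and 5 did not. Itgax passed the filter through the CDP arrays alone, and its p rests on CMP values below detection. Among the 5, Csf1r passed on 1 of its 3 probe sets, though not on the brightest. Kit read 7.18 to 7.75 in CDP and 10.04 to 10.20 in CMP, and Itgax 6.38 to 7.78 in CDP and below detection in CMP. Csf1r, which encodes CD115, was detected in both, at 12.94 to 13.16 in CDP and 11.03 to 11.75 in the CD115-negative CMP. Fcgr2b, which encodes CD32, read 9.25 to 10.25 in CDP and 8.72 to 9.01 in CMP, although both were sorted as lacking CD16/32.

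Cybb, the catalytic chain, was measured best on probe set 1436778_at. It stood at 6.25, 8.79 and 7.55 on CDP 1, CDP 2 and CDP 3, and at 2.74 and 4.96 on CMP 1 and CMP 2. The gene was thus detected on every CDP array and on neither CMP array, and the groups did not overlap. The means were 7.53 ± 1.27 in CDP (SD, n = 3) and 3.85 ± 1.57 in CMP (SD, n = 2). Because CMP lay below detection, the fold can only be bounded, and it was at least 5.77-fold higher in CDP with values below log2 5 set to 5. The fitted difference was 3.68 ± 0.93 (SE, 95% interval 1.43 to 5.93, limma adjusted p = 0.134). The probe set passed the filter through the CDP arrays alone, and this fit and those that follow use CMP values below detection, so their sizes and errors are not measured on the CMP side.

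Within the kinds of array the Cybb difference was 3.50 between CDP 1 and CMP 1 and 3.21 between the mean of CDP 2 and CDP 3 and CMP 2. With values below log2 5 set to 5, it was at least 1.25 and at least 3.17 on the log2 scale, so CDP was higher in both kinds, and whether by a like amount was not measured. With the kind of array as a block the difference was 3.34 ± 0.41 (95% interval 2.34 to 4.33) and passed the threshold (limma adjusted p = 0.00943), as did 8.69% of all tested probe sets. Because that fit too rests on CMP values below detection, its pass is a description of this probe set and adds no support. Without CDP 2, the array with neutrophil transcripts, the difference was 3.05 (limma adjusted p = 0.388), and at least 1.90 with values below log2 5 set to 5. The 5 fits that each left out 1 array gave 2.57 to 4.79, none of them past the threshold, and the lowest was that without CMP 1.

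The other Cybb probe sets were too dim to test. On 1422978_at the values were 2.26, 6.21 and 3.69 in CDP and 2.28 and 2.91 in CMP, so CDP 2 alone was above detection. On 1436779_at no array exceeded 2.90, that of CDP 2. CDP 2 was the highest array on all 3 Cybb probe sets. The part of its neutrophil transcripts in these values was not tested.

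Summed monocyte, macrophage and dendritic cell markers were also higher on the CDP arrays, and both sums hold sorting genes. The summed signal of 8 monocyte and macrophage markers was 14.80 to 15.01 (log2) in CDP and 13.09 to 13.17 in CMP, with 7 of the 8 detected on each CDP array and 5 and 6 on CMP 1 and CMP 2. The brightest of them were F13a1, at 13.71 to 14.01 in CDP and 11.96 to 12.01 in CMP, and the sorting gene Csf1r, while Lyz2 and Cd14 overlapped between groups. Fcgr1, the high-affinity IgG receptor of macrophages, was below detection on every array. The 6 conventional dendritic cell markers summed to 8.96 to 9.88 in CDP and 5.40 to 6.29 in CMP, with Xcr1, Ccr7 and Cd209a below detection throughout and Itgax, a sorting gene, among those detected in CDP. The sum of 6 granulocyte progenitor markers went the other way, at 15.15 to 15.49 in CDP and 15.87 to 16.09 in CMP. Sums of plasmacytoid dendritic cell and B cell markers were also higher on every CDP array. Sums of megakaryocyte markers and of mast cell and basophil markers were lower on every CDP array. The part of any of these cells in the Cybb difference was not tested.

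Cyba, which encodes the p22phox partner of gp91phox, was detected on all 5 arrays. Its 1 probe set read 7.77, 8.58 and 8.49 in CDP and 6.29 and 8.78 in CMP. The groups overlapped, since CMP 2 was the highest and CMP 1 the lowest of all arrays. The means were 8.28 ± 0.44 in CDP (SD, n = 3) and 7.54 ± 1.76 in CMP (SD, n = 2), a difference of 0.74 ± 0.75 (SE, 95% interval -1.08 to 2.56, limma adjusted p = 0.701). The sign changed with the kind of array, at 1.48 between the 5′-poor arrays and -0.25 between the others. It also turned to -0.50 when CMP 1 was left out, against 1.99 without CMP 2. No direction can therefore be given for Cyba.

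Ncf1 encodes p47phox, the organizer that carries the cytosolic complex to the membrane, and its 3 probe sets did not behave alike. The brightest, 1456772_at, read 12.99, 12.97 and 12.36 in CDP and 12.35 and 12.02 in CMP. The CDP arrays were all higher, although CDP 3 and CMP 1 differed only in the second decimal. The means were 12.77 ± 0.35 in CDP (SD, n = 3) and 12.18 ± 0.23 in CMP (SD, n = 2), 1.51-fold higher in CDP without passing (0.59 ± 0.36 SE, 95% interval -0.27 to 1.46, limma adjusted p = 0.489). This probe set was hardly touched by the kind of array, with differences of 0.64 and 0.65 within the 5′-poor arrays and within the others.

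The other Ncf1 probe sets, both designed on 1 further source sequence, differed more with the kind of array. On 1451767_at the values were 6.79, 7.60 and 6.49 in CDP and 4.32 and 7.62 in CMP. On 1425609_at they were 3.76, 5.85 and 4.19 in CDP and 3.47 and 5.60 in CMP. The groups overlapped on both, and CMP 1, a 5′-poor array, was the lowest array on each. Their differences were 0.99 ± 0.96 and 0.06 ± 0.85 (SE, limma adjusted p = 0.690 and 0.984), the second below the median of all probe sets. Within the 5′-poor arrays they were 2.46 and 0.29, and within the others -0.58 and -0.59. CMP 1 was below detection on both and CDP 1 on the dimmer, so the values within the 5′-poor arrays are not fully measured. Ncf1 transcript was thus detected in both populations, and no Ncf1 probe set passed.

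Ncf4 encodes p40phox, which binds a lipid of the phagosome membrane and sustains the oxidase there. Its 1 probe set read 8.82, 10.19 and 10.80 in CDP and 8.01 and 8.42 in CMP. Every CDP array was above every CMP array, with CDP 1 nearest to the CMP values. The means were 9.94 ± 1.01 in CDP (SD, n = 3) and 8.22 ± 0.29 in CMP (SD, n = 2), 3.30-fold higher in CDP. This difference of 1.72 ± 0.61 did not pass (SE, 95% interval 0.23 to 3.21, limma adjusted p = 0.252), nor did it with the kind of array as a block (1.53 ± 0.39 SE, limma adjusted p = 0.0616). It was 0.81 within the 5′-poor arrays and 2.07 within the others. Without CDP 2 it was 1.59 (limma adjusted p = 0.602). The part of neutrophil transcripts in the Ncf4 difference was not tested.

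**Figure D3:**
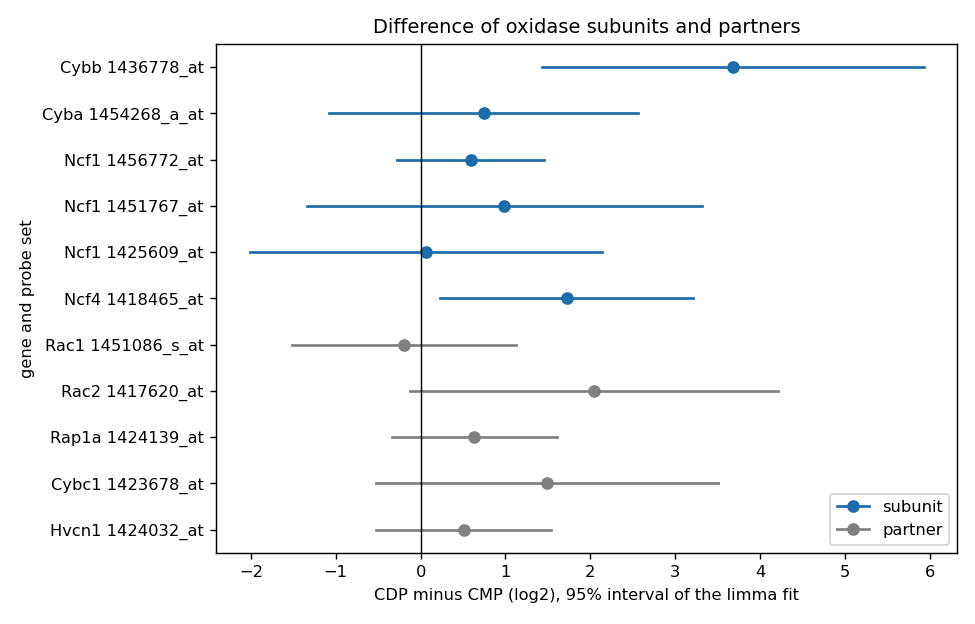
CDP minus CMP difference (log2, horizontal axis) with the 95% interval of the limma fit for the 6 tested subunit probe sets (blue) and the brightest probe set of 5 partner genes (grey). The intervals of Cybb and Ncf4 lie above 0, the others span it, and none passed after adjustment over all tested probe sets. The interval of Cybb rests on CMP values below detection.

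Whether the population difference itself changed with the kind of array was fitted as an interaction. For Cyba it was 1.73 (unadjusted p = 0.0151 in the limma fit, adjusted p = 0.458) and for Ncf1 1451767_at 3.04 (unadjusted p = 0.0274 in the limma fit, adjusted p = 0.458), where a positive value means a larger difference between the 5′-poor arrays. Ncf4 went the other way at -1.26 (unadjusted p = 0.100 in the limma fit, adjusted p = 0.499). For Cybb it was 0.30, for Ncf1 1456772_at -0.01 and for Ncf1 1425609_at 0.88, with limma adjusted p-values of 0.910, 0.997 and 0.787. The values for Cybb and for the dimmer Ncf1 probe sets use CMP arrays below detection. Across all probe sets, 0 of 16552 passed (0%) and 1771 had an unadjusted p under 0.05 (10.7%). The fit leaves 1 residual degree of freedom per probe set beside the pooled variance. The dependence of Cyba, Ncf4 and Ncf1 1451767_at on the kind of array therefore remains a description of these 5 arrays.

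**Figure D4:**
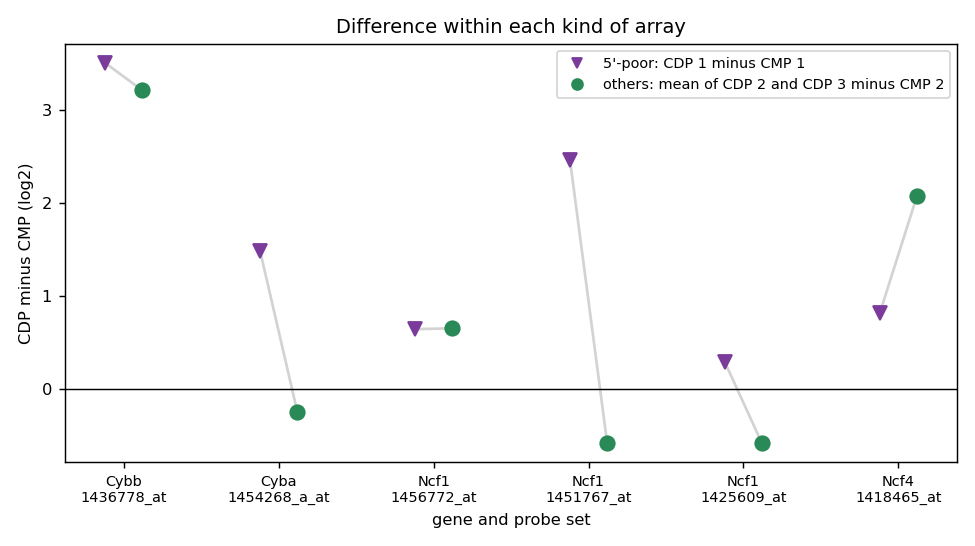
CDP minus CMP difference (log2, vertical axis) of the 6 tested subunit probe sets, within the 5′-poor arrays (triangles, CDP 1 minus CMP 1) and within the others (circles, mean of CDP 2 and CDP 3 minus CMP 2). Cyba and the dimmer Ncf1 probe sets cross 0, and Cybb is drawn at 3.50 and 3.21 although CMP was below detection there, so that the difference is known only as at least 1.25 and at least 3.17.

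The partners that the subunits need were detected in both populations, and none of the 5 tested passed. Rac2, the GTPase that activates the oxidase in blood cells, read 8.65, 10.74 and 10.94 in CDP and 7.07 and 9.07 in CMP. The groups overlapped, because CDP 1 lay below CMP 2, and the difference was 2.04 ± 0.89 (SE, limma adjusted p = 0.341). Within each kind of array it was 1.58 and 1.78, and with the kind of array as a block Rac2 passed (1.69 ± 0.26 SE, limma adjusted p = 0.0161). Cybc1, the chaperone also called Eros that is needed for gp91phox and p22phox protein, read 7.68, 9.66 and 9.08 in CDP and 6.23 and 8.40 in CMP. Its difference of 1.49 ± 0.83 did not pass (SE, limma adjusted p = 0.453), and within the kinds of array it was 1.45 and 0.97.

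Rac1, the widely expressed relative of Rac2, had tested probe sets of opposite sign. The brightest, which can match several transcripts, was at -0.19 ± 0.54 (SE, limma adjusted p = 0.910) and another at 0.92 ± 0.30 (SE, limma adjusted p = 0.213). Rap1a, a small GTPase found with cytochrome b558, was at 0.63 ± 0.40 (SE, limma adjusted p = 0.513). Hvcn1, the proton channel that balances the charge the oxidase moves, was at 0.51 ± 0.42 (SE, limma adjusted p = 0.633). Neither moved beyond the spread between arrays. The 5 other oxidase genes with a named probe set (Nox4, Noxo1, Duox1, Duoxa1 and Duoxa2) were below detection on every array.

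Of the wider pathway, 79 genes were listed besides the 4 subunits, 66 had a named probe set and 47 were tested, each on its brightest tested probe set. Of these 4 rose in CDP, 1 of them (Pik3r5) against CMP values below detection, none fell and 43 did not pass, where 1.67% of all 8449 tested genes were called higher and 0.473% lower. Their median difference was 0.25, against 0.17 over all tested genes, and every CDP array was above every CMP array for 9 of the 47, against 23.7% of all tested genes. Every CDP array was below every CMP array for 5 of the 47, against 910 of the 8449 tested genes. With the kind of array as a block 9 passed, all higher in CDP, where 7.1% of all tested genes were called higher. The lists were chosen with earlier results of these data known. Their shares therefore describe the lists and are no evidence of enrichment. With any 1 array left out none of the 47 passed in limma, although 8 to 14 had an unadjusted p under 0.05.

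**Figure D5:**
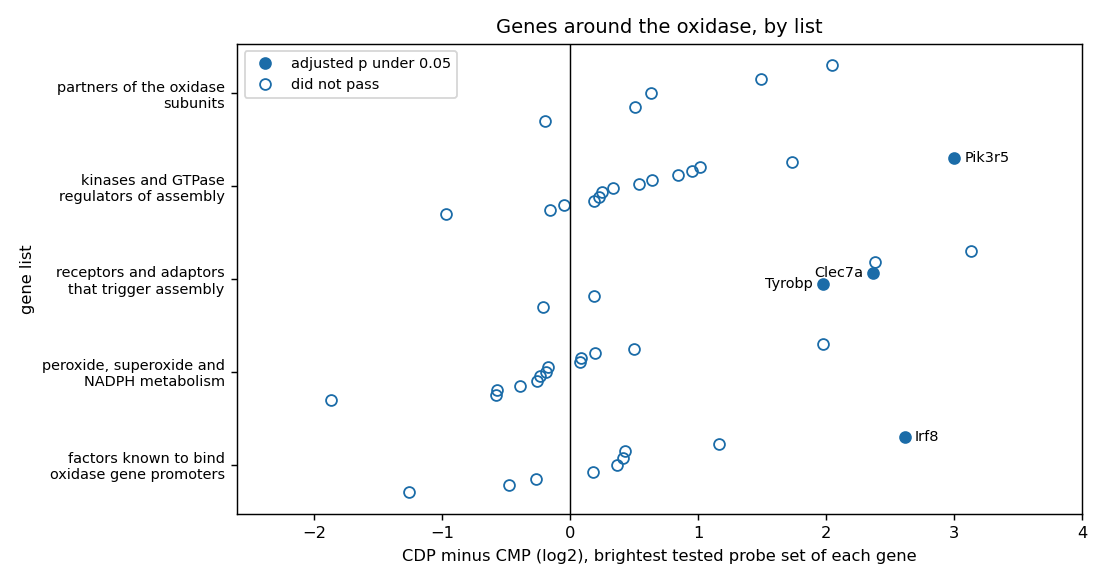
CDP minus CMP difference (log2, horizontal axis) of each of the 47 tested pathway genes, by list, on its brightest tested probe set. Filled points passed an adjusted p under 0.05 and are named. They are Pik3r5, Clec7a, Tyrobp and Irf8, all higher in CDP.

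Receptors and adaptors that trigger assembly held 2 of the 4 calls, with 6 genes tested. Clec7a, the beta-glucan receptor Dectin-1, read 10.41, 10.17 and 10.28 in CDP and 7.85 and 7.99 in CMP. Tyrobp, the ITAM adaptor DAP12, read 13.07, 13.37 and 13.25 in CDP and 11.06 and 11.45 in CMP. Clec7a rose 5.16-fold (limma adjusted p = 0.0301) and Tyrobp 3.92-fold (limma adjusted p = 0.0477), with no overlap between groups. Itgb2, the beta-2 integrin chain, and Fcer1g, the Fc receptor gamma chain, differed by 3.13 ± 0.64 and 2.38 ± 0.40 without passing (SE, limma adjusted p = 0.0849 and 0.0525). Both passed with the kind of array as a block (limma adjusted p = 0.00943 and 0.00780). Syk, the kinase that these adaptors recruit, and Fcgr3 were at 0.19 ± 0.45 and -0.21 ± 0.40 (SE, limma adjusted p = 0.893 and 0.860).

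Among 14 tested kinases and GTPase regulators, Pik3r5 alone passed. It encodes p101, the regulatory subunit of the PI3-kinase gamma that chemoattractant receptors use, and was at 7.19, 7.57 and 7.78 in CDP and 4.64 and 4.40 in CMP. Pik3r5 was thus detected on CDP arrays only and rose at least 5.71-fold (limma adjusted p = 0.0217). Like Cybb it passed the filter through the CDP arrays alone, and its p rests on CMP values below detection. Mapk14, Vav1, Pak2 and Dock2 were at 0.34, 0.64, -0.05 and 0.54, with limma adjusted p-values of 0.656, 0.530, 0.972 and 0.631. Prex1, a Rac exchange factor, passed only with the kind of array as a block (1.12 ± 0.25 SE, limma adjusted p = 0.0473).

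Of 13 tested genes of peroxide, superoxide and NADPH metabolism none passed, and 5 were above 0. Every CDP array was below every CMP array for 4 of the 13 and above for 1. Over all 8449 tested genes this held for 910 and 2005. Mpo, the myeloperoxidase that uses the hydrogen peroxide formed from superoxide, was at -0.58 ± 0.32 (SE, limma adjusted p = 0.446). Sod1, which converts superoxide to hydrogen peroxide, was at -0.26 ± 0.30, and the peroxide-lowering Txn1 and Gpx1 were at 0.09 ± 0.36 and 0.50 ± 0.57 (SE, limma adjusted p = 0.756, 0.939 and 0.747). Prdx4, a peroxiredoxin of the endoplasmic reticulum, differed by 1.98 ± 0.34 and missed the threshold (SE, limma adjusted p = 0.0536), and it passed with the kind of array as a block (limma adjusted p = 0.0124).

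Of 9 tested genes for factors that act at oxidase gene promoters, among them the coactivator Crebbp, Irf8 rose and 8 did not pass. Irf8 read 15.07, 15.17 and 15.26 in CDP and 12.22 and 12.89 in CMP, a 6.12-fold rise (limma adjusted p = 0.0318). Its second probe set was at 2.78 ± 0.53 and did not pass (SE, limma adjusted p = 0.0694). Spi1, which encodes PU.1, read 6.30, 7.61 and 8.43 in CDP and 6.99 and 7.08 in CMP, with both CMP arrays inside the CDP range (0.41 ± 0.63 SE, limma adjusted p = 0.818). Hoxa9, Crebbp, Satb1 and Elf1 were at -1.26, 0.37, -0.48 and 0.18, with limma adjusted p-values of 0.428, 0.818, 0.601 and 0.878. The Cybb window holds the composite match shown above. Cybb, with CMP values below detection, and Irf8 were both higher on every CDP array, as were 23.7% of all tested genes. Whether IRF8 acts on Cybb in these cells was not tested. These are values side by side on 5 arrays.

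Likeness of pattern was measured as the root mean square difference between log2 profiles, each centred on its own mean, over the 5 arrays and 8445 other genes. Cybb was closest to Kmo (0.301), an enzyme of kynurenine metabolism, then to Rnd3 (0.457) and Itgb2 (0.464). Cyba was closest to Tmem222 (0.0918), Cln8 (0.114) and Nsmce3 (0.133), and Ncf4 to Traip (0.116), Cdk5rap2 (0.140) and Cep72 (0.182). For Ncf1 on its brightest probe set the closest were Rab5a (0.0808), Malt1 (0.0809) and Nos1ap (0.110). The subunits themselves were left out of this search. Kmo read 8.55, 10.49 and 10.02 in CDP and 5.24 and 6.96 in CMP, with CDP 2 highest and CMP 1 lowest. Cybb also had CDP 2 highest, but its CMP values were both below detection, as were those of Rnd3. The order of the CMP arrays for Cybb and its distances to these genes are therefore not fully measured. Of the genes closest to Ncf4, Cdk5rap2 was below detection on CMP 1 (4.47). Cep72 was below it on CDP 1 (3.45) and on CMP 1 and CMP 2 (3.09 and 3.44). The distances of Ncf4 to Cdk5rap2 and Cep72 are likewise not fully measured.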

How the data were processed

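Per the labels' protocols, total RNA of twice-sorted CDP or CMP was amplified with a 2-cycle kit, labelled with biotin and put on Affymetrix mouse 430 arrays. GCRMA is the method named in the submitters' processing notes, and the deposited table of the authors holds log2 values of 45037 probe sets and 64 controls, from 2.256 to 16.59. Versions and whether arrays were processed together are not given in the sources used here. No count stands behind these values, so precision is limited by the number of arrays.

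Groups came from the titles. Gene names are those of the platform annotation, and a check of identifiers in RefSeq (GRCm38.p6) changed no symbol. CDP minus CMP was fitted in limma 3.58.1 (R 4.3.3, lmFit and eBayes, 2-sided, 3 residual and 3.14 prior degrees of freedom) on 16552 probe sets with at least 2 arrays at log2 5 or more, with Benjamini-Hochberg adjustment. A gene's brightest tested probe set stands for it. Named were all subunit probe sets, called pathway genes (also those called with the block), the direct partners, Spi1 and Irf8, up to 4 more genes per list by mean, and 3 nearest profiles. Fits were tested on simulated data. The members and lists were chosen with earlier results of these data known. Alternatives covered scaling, filters, variance models, weights, blocks, probe set choice and leaving out arrays. The removal of both 5′-poor arrays (below log2 8 on the 5′ beta-actin control) was added after seeing the data.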

Additional observations from a re-analysis of the deposited data

How the results depend on the processing

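Cybb, Ncf4 and Ncf1 kept a positive difference in all 18 alternatives with a test (for Ncf1 on its brightest probe set, except 1 that averaged its probe sets), ranging over 2.57 to 4.79, 1.29 to 2.28 and 0.43 to 0.80. Cybb passed in 2 of them, both on CMP values below detection. These were the kind of array as a block (3.34) and the replicate number of the titles as a block (3.67, limma adjusted p = 0.0102). Both blocks set CDP 1 and CMP 1 apart from the other arrays, so they overlap. Cyba, Ncf1 and Ncf4 passed in none of the 18. Cyba ranged from -0.50 to 1.99 with 1 array left out and was -0.25 without both 5′-poor arrays. Within the 5′-poor arrays Ncf4 was 0.81. The dimmest tested Ncf1 probe set turned to -0.046 with quantile normalization, -0.21 with the kind of array as a block and -0.59 without both 5′-poor arrays, and ranged from -1.01 to 1.13 with 1 array left out. The middle one was -0.58 without both 5′-poor arrays and ranged from -0.66 to 2.64 with 1 array left out. The cause of these changes was not tested.

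The count of 287 called probe sets became 55 with no filter, 608 with the replicate block and 1438 with the kind of array as a block. It was 0 to 44 with 1 array left out and 0 without both 5′-poor arrays, with 1508 to 3208 and 4768 at an unadjusted p under 0.05 in limma. The 4 called pathway genes became 0 with no filter, 7 with the replicate block, 9 with the kind of array as a block, and 0 with any 1 array or both 5′-poor arrays left out, the last with 13 at an unadjusted p under 0.05. Without a filter more probe sets near the lowest value are tested. Leaving arrays out leaves fewer degrees of freedom, and so does each block, although the counts rose with the blocks. The cause of the changed counts was not tested. Same-numbered arrays deviated together (correlation of deviations 0.606 for replicate 1 and 0.579 for replicate 2), but no label pairs them. With 2 CMP arrays their deviations mirror each other. The arrays of replicate 1 are also the 5′-poor arrays, so pairing and the kind of array cannot be told apart here.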
